A study of Mus musculus with 2 samples.

Results

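Neutrophil granule protein genes are 9 of the 32285 genes in the files, chosen by symbol: Ltf, Camp, Ngp and Lcn2, whose products fill the specific granules, Mpo, Elane, Prtn3 and Ctsg, whose products fill the azurophil granules, and Chil3. They were read as traces of neutrophil maturity in 2 mouse pancreatic tumors. The injected KPC cells, which are pancreatic cancer cells of the mouse, had been made into stable lentiviral lines with a control construct (KPC-shV) or one targeting Zeb1 (KPC-shZEB1). They were injected into the pancreas of mice whose strain and age the labels do not give (the study's methods list C57BL/6J, BALB/c and NSG mice, 4–6 weeks old, for this model), and 1 tumor per group was dissociated, depleted of red cells by lysis, and sequenced with 10x Chromium 3′ chemistry. Gemcitabine, given to such mice according to the study's text, is absent from the labels. With 1 library per group no difference has a replicate check, and mouse, tumor, dissociation, library and hairpin cannot be told apart.

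A neutrophil loads its granules while it matures in the bone marrow. Promyelocytes transcribe the azurophil proteins, the peroxidase Mpo and the serine proteases Elane (neutrophil elastase), Prtn3 (proteinase 3) and Ctsg (cathepsin G). Myelocytes and metamyelocytes then transcribe the specific granule proteins under the factor Cebpe: the iron binder lactoferrin (Ltf), the cathelicidin antimicrobial peptide (Camp), the neutrophilic granule protein Ngp and the siderophore binder lipocalin 2 (Lcn2). Chil3 encodes the chitinase-like protein Ym1, made by immature neutrophils and by monocytes and macrophages. Mature neutrophils keep the proteins and lose most of these transcripts, and Cxcr2, the receptor for neutrophil-attracting chemokines, marks mature circulating cells, whereas Siglecf has been described on long-lived neutrophils in tumors.

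Camp, Ngp and Ltf, specific granule genes on the same chromosome that differed below in how few cells held their UMIs, are shown by their promoters, with Prtn3 and Elane as neighbors of which 1 was detected and the other nearly absent. Camp (ENSMUSG00000038357, minus strand) spans chr9:109847379-109849617 in GRCm38, Ngp (ENSMUSG00000032484, plus strand) chr9:110419747-110423012, and Ltf (ENSMUSG00000032496, plus strand) chr9:111019271-111042767. Gaps of 570 kb and 596 kb separate them. Prtn3 (ENSMUSG00000057729) at chr10:79874476-79883174 and Elane (ENSMUSG00000020125) at chr10:79886247-79888215 are both on the plus strand, 3.07 kb apart. The 250 bases before each RefSeq start (GRCm38.p6), written 5′ to 3′ on the gene's strand, lie at chr9:109849457-109849706 for Camp, chr9:110419558-110419807 for Ngp, chr9:111019042-111019291 for Ltf, chr10:79879417-79879666 for Prtn3 and chr10:79886062-79886311 for Elane. In the GENCODE annotation these genes start earlier than in RefSeq, inside or before the windows. Capitals mark matches on either strand to TTNNGNAA, the paired half-sites of C/EBP factors, or to GAGGAAGT, a PU.1 core.
Camp: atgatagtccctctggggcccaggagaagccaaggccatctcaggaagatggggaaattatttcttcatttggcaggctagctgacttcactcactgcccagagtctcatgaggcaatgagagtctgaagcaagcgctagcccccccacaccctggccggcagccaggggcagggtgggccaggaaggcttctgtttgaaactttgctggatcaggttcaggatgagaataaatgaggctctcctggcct
Ngp: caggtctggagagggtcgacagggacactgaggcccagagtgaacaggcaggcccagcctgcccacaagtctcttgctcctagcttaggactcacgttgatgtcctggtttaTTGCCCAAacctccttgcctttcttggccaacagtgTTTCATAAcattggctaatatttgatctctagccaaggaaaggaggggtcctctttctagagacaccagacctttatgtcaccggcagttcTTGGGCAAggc
Ltf: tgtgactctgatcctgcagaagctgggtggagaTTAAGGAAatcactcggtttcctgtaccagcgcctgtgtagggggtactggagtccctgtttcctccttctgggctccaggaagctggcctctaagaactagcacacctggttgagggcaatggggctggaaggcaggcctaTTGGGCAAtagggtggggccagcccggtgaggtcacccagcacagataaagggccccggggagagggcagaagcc
Prtn3: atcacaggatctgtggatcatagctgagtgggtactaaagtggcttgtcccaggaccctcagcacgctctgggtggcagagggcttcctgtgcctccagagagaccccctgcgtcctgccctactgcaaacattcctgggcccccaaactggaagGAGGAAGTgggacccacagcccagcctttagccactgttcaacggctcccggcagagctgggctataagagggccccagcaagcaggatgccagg
Elane: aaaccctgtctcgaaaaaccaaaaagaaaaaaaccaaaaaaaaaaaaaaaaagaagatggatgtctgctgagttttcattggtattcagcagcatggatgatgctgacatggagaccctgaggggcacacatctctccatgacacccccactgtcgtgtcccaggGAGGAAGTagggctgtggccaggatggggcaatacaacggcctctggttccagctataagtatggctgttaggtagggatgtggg
The C/EBP letters occurred 3 times in the Ngp window, 2 times in that of Ltf and 0 times in that of Camp, and 36.8% of 32851 such windows held them. The PU.1 letters occurred once each for Prtn3 and Elane and also for Mpo, against 2.44% of all windows. These matches are letters only, and Prtn3 and Elane shared the PU.1 letters although their levels differed.

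In the 2 libraries, 11388 and 12099 cells were kept, with medians of 3718.5 and 4252 UMIs (unique molecular identifiers, each counting 1 captured RNA molecule). Both libraries shared 46 barcodes. Neutrophil-like cells, named from 9 markers that do not include the granule genes, numbered 6861 (60.2%) in the KPC-shV-labelled library and 4574 (37.8%) in the KPC-shZEB1-labelled library, in 5 clusters, with median depths of 3147 and 2887.5 UMIs. All 9 neutrophil markers were detected. Markers of other cells were also present in them, and their part in the results was not tested. The summed level of 8 eosinophil markers was 19.3 and 21.4 CPM (UMIs per 1000000 UMIs of the cell class), and that of 10 monocyte-macrophage markers, Lyz2 among them, 1334 and 3370 CPM. Zeb1, the targeted gene, was not lower in tumor-like cells of the KPC-shZEB1-labelled library, at 173 CPM (95% interval, 169–178) against 131 CPM (126–136), so the libraries are called KPC-shV-labelled and KPC-shZEB1-labelled throughout. The tumor-like class pools clusters whose cell numbers differ between the libraries, such as 24 and 242 cells in 1 cluster. Zeb1 was not compared within clusters. Intervals cover counting error only.

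Across cell classes, only Camp and Ngp had their highest level in neutrophil-like cells in both libraries. Ngp was at 30.9 CPM (28.7–33.3) and 35.5 CPM (32.4–38.7) in neutrophil-like cells of the KPC-shV-labelled and KPC-shZEB1-labelled libraries, and at 0 to 1.80 CPM in every other named class. Camp was at 22.6 CPM (20.7–24.7) and 14.6 CPM (12.6–16.7), with at most 2.82 CPM elsewhere, the latter from 1 UMI. B-like cells, which should not make these proteins, gave a background level: 1.73 and 0.897 CPM of Camp, 0 and 0.897 CPM of Ngp, 3.46 and 4.04 CPM of Ltf, and 40.7 and 46.4 CPM of Lcn2. Ltf reached 51.6 CPM (48.7–54.7) and 55.6 CPM (51.8–59.7) in neutrophil-like cells, 14.9 and 13.8 times the B-like level. Lcn2 reached 222 CPM (216–228) and 248 CPM (240–257), 5.45 and 5.35 times it. Mpo, Elane and Ctsg were at 0 to 0.497 CPM in neutrophil-like cells.

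**Figure D1:**
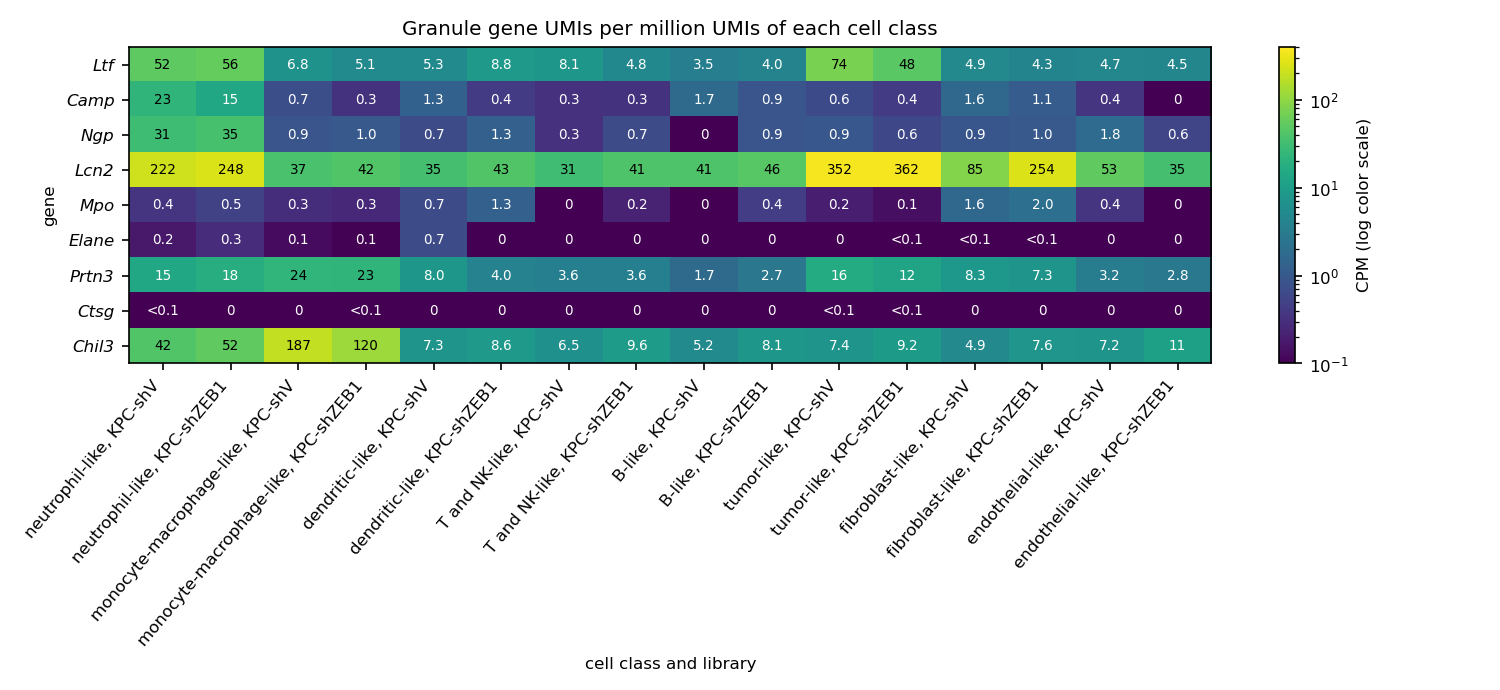
Level of each of the 9 granule genes (rows) in 8 cell classes of each library (columns), in UMIs per 1000000 UMIs of the class (CPM) on a log color scale, with the value printed in each cell. Camp and Ngp stand out in the neutrophil-like columns (14.6 to 35.5 CPM), Ltf and Lcn2 are also high in tumor-like cells, Chil3 is highest in monocyte-macrophage-like cells (187 and 120 CPM), and Mpo, Elane and Ctsg are dark throughout; plasmacytoid dendritic-like, acinar-like and unnamed cells are not drawn.

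Camp and Ngp UMIs of the neutrophils came mostly from a handful of cells. In the KPC-shV-labelled library, 1 cell held 460 of the 516 Camp UMIs (89.1%) and 564 of the 705 Ngp UMIs (80.0%) of all 6861 neutrophil-like cells. The highest cell of the KPC-shZEB1-labelled library held 83 of 205 Camp UMIs (40.5%) and 311 of 500 Ngp UMIs (62.2%). The 5 highest cells for each gene held 95.7% and 89.8% of Camp and 91.5% and 93.6% of Ngp. Ltf was spread more widely, with 662 and 424 cells holding a UMI and 17.7% and 24.7% of UMIs in its 5 highest cells. For Lcn2, with a UMI in 2083 and 1304 cells, the 5 highest cells held 5.55% and 16.4%. The 5 highest cells for Prtn3 held the smallest share, at 4.53% and 10.4%. Over the 50 highest cells Lcn2 was the more widely spread, at 17.5% and 34.3% against 27.8% and 42.2% for Prtn3. UMIs of 1 cell are not independent, so the intervals of Camp and Ngp are too narrow as a measure of neutrophils at large.

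**Figure D2:**
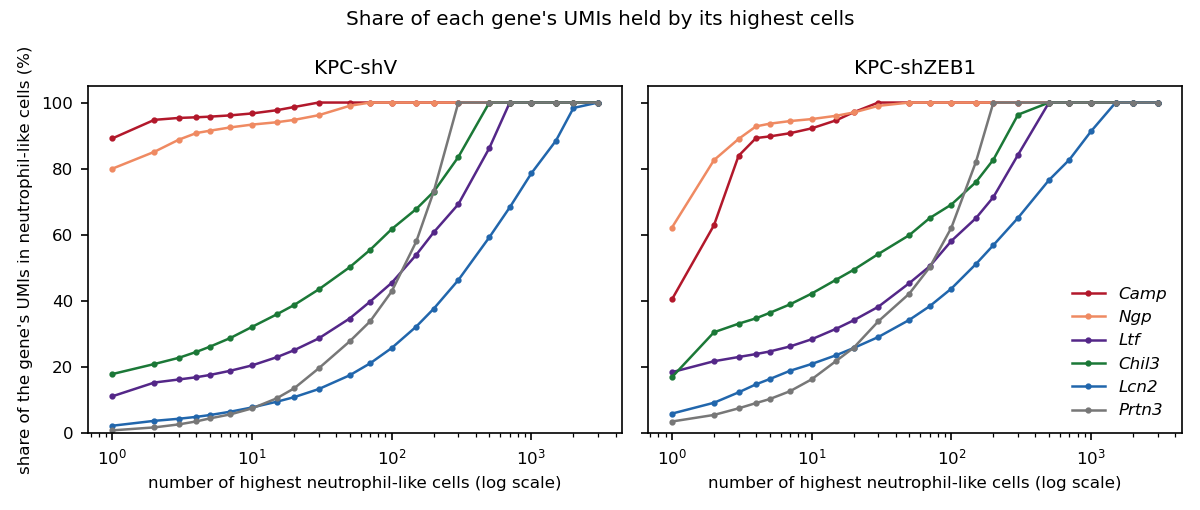
Cumulative share of each gene's UMIs in neutrophil-like cells (vertical axis, percent) held by its highest cells (horizontal axis, number of cells, log scale), 1 panel per library. The Camp and Ngp curves pass 89% within 5 cells in both libraries, whereas the 5 highest cells hold 4.53% to 36.4% of the UMIs of Ltf, Chil3, Lcn2 and Prtn3.

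Cells with at least 10 UMIs of Camp and Ngp together, a minimum chosen after the values were seen, are called granule-rich here. There were 4 in the KPC-shV-labelled library (0.0583% of neutrophil-like cells, 95% Clopper-Pearson interval 0.0159–0.149%) and 5 in the KPC-shZEB1-labelled library (0.109%, 0.0355–0.255%). The lowest cells inside held 17 and 11 such UMIs and the highest outside 5 and 4, and no other barcode of either library, filtered barcodes included, held more than 5. The first cell of the KPC-shV-labelled library had 132 Ltf, 460 Camp, 564 Ngp, 117 Lcn2 and 171 Chil3 UMIs among 13501. The second had 49 Ltf, 29 Camp, 36 Ngp, 32 Lcn2 and 2 Chil3 UMIs. The other two had 26 and 14 Ngp UMIs with 0 and 3 of Camp. In the KPC-shZEB1-labelled library, the first cell had 145 Ltf, 83 Camp, 311 Ngp, 209 Lcn2 and 125 Chil3 UMIs among 13665. The second had 26 Ltf, 46 Camp and 102 Ngp UMIs, and the third 0 Ltf, 43 Camp, 32 Ngp and 100 Chil3 UMIs. Of the other two, 1 held 19 Ngp and no Camp UMIs, and 1 held 11 Camp and no Ngp UMIs. Ltf was detected in 5 of the 9 cells, and Lcn2 and Chil3, which the minimum did not use, in all 9.

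**Figure D3:**
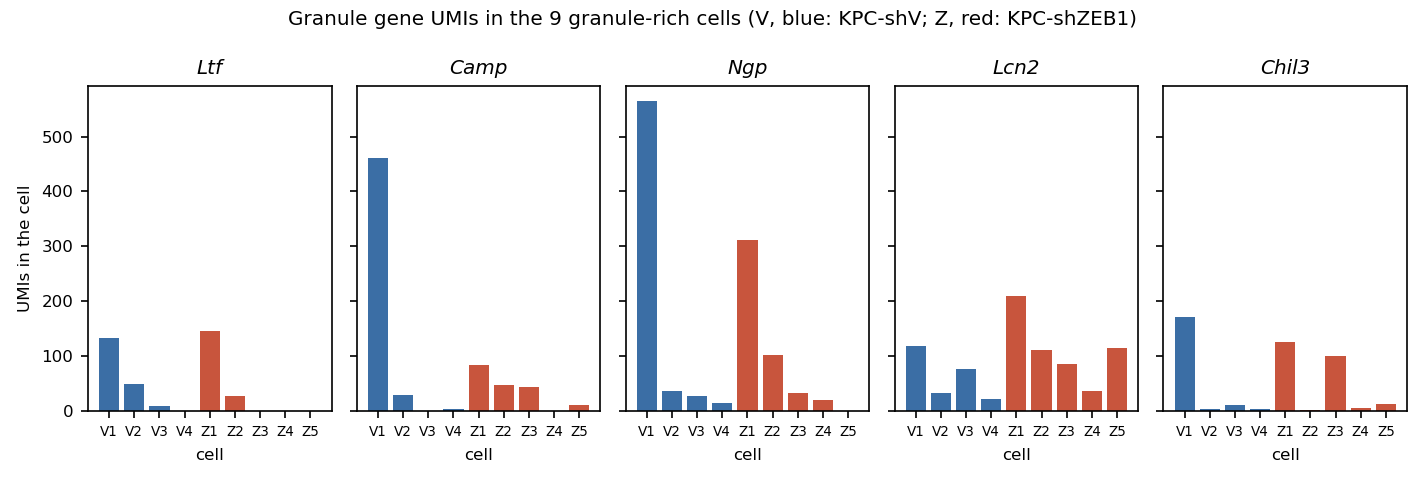
UMIs of Ltf, Camp, Ngp, Lcn2 and Chil3 (vertical axes) in each of the 9 granule-rich cells (horizontal axis; V1 to V4 from the KPC-shV-labelled library in blue, Z1 to Z5 from the KPC-shZEB1-labelled library in red). The first cell of each library leads for Camp, Ngp and Ltf, with 460 and 83, 564 and 311, and 132 and 145 UMIs.

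Mpo and Elane had no UMI in any of the 9 granule-rich cells. Ctsg had 1 UMI in those of the KPC-shV-labelled library. Prtn3 had 3 and 4 UMIs in the granule-rich cells (72.5 and 83.3 CPM), against 14.4 and 17.6 CPM in the other neutrophil-like cells. Ms4a3, a promyelocyte gene, had 4 of its 14 neutrophil UMIs there in the KPC-shV-labelled library and 0 of 5 in the KPC-shZEB1-labelled library. Cebpe, the factor of specific granule genes, was detected in 5 of the 9 (7 UMIs in each library, 169 and 146 CPM, against 6.497 and 7.76 CPM in the other neutrophil-like cells). Cd177, a surface glycoprotein stored in specific granules, was detected in all 9, and Retnlg, a transcript of mature circulating neutrophils, in 8. The exception was the first cell of the KPC-shV-labelled library. Mki67, a proliferation marker, had 3 and 6 UMIs in the first cells of the KPC-shV-labelled and KPC-shZEB1-labelled libraries, and Top2a none in any of the 9. These cells were deeper than the rest, at medians of 10338 and 9249 UMIs against 3147 and 2886. Their doublet scores of 0.0079 to 0.0914 lay under the limit of 0.2. They held 0 UMIs of Cd79a and up to 2 of Cd3e and Epcam, while C1qa, a macrophage gene, had 1 to 4 UMIs in 7 of the 9. The part of doublets and depth was not tested. The clustering, which did not use the 9 genes, placed 7 of the 9 in the cluster led by Abca13, Med12l, Mmp9 and Siglecf, and the other two in the cluster led by Cxcr2 and G0s2. The first cell of the KPC-shZEB1-labelled library was classed as monocyte-macrophage-like when doublets or cells above 60000 UMIs were not removed, and the other 8 stayed neutrophil-like under all 6 alternative clusterings.

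Outside these cells, little Camp and Ngp was left. Camp fell to 24 UMIs (1.05 CPM, 0.675–1.57) and 22 UMIs (1.57 CPM, 0.982–2.37), and Ngp to 2.85 CPM (2.20–3.64) and 2.56 CPM (1.80–3.55). Camp was detected in 0.394% of neutrophil-like cells (0.259–0.572%) in the KPC-shV-labelled library, against 0.694% of B-like cells (0.0842–2.49%), at depths of 3147 and 3731.5 UMIs. In the KPC-shZEB1-labelled library the shares were 0.568% and 0.327%, with overlapping intervals, at depths of 2887.5 and 3417 UMIs. Detection of Camp in a neutrophil-like cell was therefore not read as expression. Ngp was detected in 0.831% and 0.765% of neutrophil-like cells, against 0 of 288 B-like cells (up to 1.04% is possible with this count) and 0.327% of 1225. Ltf, Lcn2, Prtn3 and Chil3 were detected more often than in B-like cells, with intervals that did not overlap in either library. Shares in neutrophil-like cells were 9.65% and 9.27% for Ltf, 30.4% and 28.5% for Lcn2, 4.21% and 4.26% for Prtn3 and 6.66% and 7.15% for Chil3, against 1.39% and 1.47%, 13.2% and 14.8%, 0.694% and 0.980%, and 2.08% and 2.86% of B-like cells. After thinning every cell to 1000 UMIs, the Ltf shares were 4.01% and 3.80%, against 0 of 288 B-like cells, which allows up to 1.04%, and 0.571%. The intervals of Lcn2 and Chil3 also stayed apart from those of B-like cells in both libraries after thinning, and those of Prtn3 in the KPC-shZEB1-labelled library. In the KPC-shV-labelled library the thinned Prtn3 shares overlapped, at 1.27% (1.02–1.56%) against 0.347% (0.00879–1.92%) of B-like cells.

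Few cells combined the specific granule genes. Of the 735 neutrophil-like cells with a UMI of Ltf, Camp or Ngp in the KPC-shV-labelled library, 726 held 1 of the 3 genes, 7 held 2 and 2 held all 3. Of 470 such cells in the KPC-shZEB1-labelled library, 457 held 1, 11 held 2 and 2 held all 3. Ltf was found in 10.5% and 10.2% of cells with an Lcn2 UMI and in 9.29% and 8.90% of cells without one, whose depths were 3458 against 3043 and 3066 against 2828.5 UMIs. The 9 and 13 cells with at least 2 of Ltf, Camp and Ngp were compared with the 6126 and 4104 cells that held none. Ranked were the 458 genes with at least 50 UMIs in the former cells over both libraries and a smaller minimum in each. That filter favors genes high in those cells, so the ranking is a description only. Ifitm6 had the largest ratio common to both libraries, at 60.1 and 49.3 times the level. Next were Ly6g, the classical neutrophil surface marker, at 31.8 and 41.1 times, Retnlg at 17.2 and 25.6 times and Ly6c2, a surface antigen of monocytes and immature myeloid cells, at 19.6 and 14.3 times. Mmp8 of the gelatinase and specific granules (8.14 and 16.3 times) and the antibacterial granule protein Pglyrp1 (14.8 and 7.96 times) followed, and then Lyz2, Cd177, Anxa1 and Wfdc21, at 5.18 to 8.83 times. Most of those UMIs lay in the granule-rich cells in the KPC-shV-labelled library, such as 786 of 816 for Retnlg, so this list describes few cells. A single cell of that library, the third granule-rich cell, held 28 of the 31 Ly6g UMIs and 472 of the 816 Retnlg UMIs.

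The promyelocyte genes were nearly silent. Mpo had 8 UMIs in 7 neutrophil-like cells of the KPC-shV-labelled library and 7 UMIs in 6 cells of the KPC-shZEB1-labelled library, with at most 2 UMIs in a cell. Elane had 4 UMIs in 4 cells of each library, and Ctsg 2 UMIs in 2 cells and none in the 4574 neutrophil-like cells of the KPC-shZEB1-labelled library, where up to 0.0656% of cells is possible with 0 counted. Over all barcodes of the libraries, no cell held more than 3 Mpo, 1 Elane or 1 Ctsg UMI. Fibroblast-like cells had 17 and 22 Mpo UMIs (1.57 and 2.05 CPM), spread over 16 and 21 cells. Among 5 other azurophil and promyelocyte genes, Prss57, Ms4a3 and Bpi had 2 to 16 UMIs per library in neutrophil-like cells. Ctsc, the protease that activates the granule serine proteases, was at 236 and 247 CPM, and Serpinb1a, an elastase inhibitor, at 8.76 and 11.5 CPM.

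Prtn3 was the exception among the azurophil genes. It had 331 UMIs in 289 neutrophil-like cells (14.5 CPM, 13.0–16.2) and 251 UMIs in 195 cells (17.8 CPM, 15.7–20.2), 8.37 and 6.62 times the B-like level. No neutrophil-like cell held more than 3 and 9 UMIs. Its level was higher in monocyte-macrophage-like cells, at 23.7 and 23.0 CPM, with 277 of 1601 and 422 of 2495 cells holding a UMI. The Ccr2- and Chil3-led monocyte cluster was at 39.6 CPM (35.6–43.9) and 38.4 CPM (35.01–42.1) and the Lyve1- and Folr2-bearing macrophage cluster at 25.9 and 32.1 CPM, while the Gpnmb- and Mmp12-bearing macrophage cluster was at 3.89 and 7.49 CPM. Tumor-like cells were at 16.5 and 12.5 CPM. Prtn3 overlaps Plppr3 on the opposite strand by 159 bases. Plppr3 itself was at 3.01 and 4.39 CPM in neutrophil-like cells with a Siglecf UMI and 1.89 and 2.69 CPM in those without, and how far reads of the overlap were shared was not tested.

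Ltf and Lcn2 were also high in tumor-like cells. Ltf was at 74.3 and 47.8 CPM in tumor-like cells, with a UMI in 237 of 934 and 256 of 1183 cells, and its 5 highest cells held 26.9% and 32.7% of those UMIs. Lcn2 was at 352 and 362 CPM in tumor-like cells and was detected in 62.4% and 67.3% of them. A small tumor-like cluster led by Dcdc2a, Erbb4, Mmp7 and Wfdc18, of 7 and 26 cells, was at 2336 and 2356 CPM of Lcn2. Acinar-like cells, 16 and 35 in number, were at 627 and 171 CPM.

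Chil3 was highest in monocytes. The Ccr2- and Chil3-led cluster, which Chil3 did not help to form, was at 424 CPM (410–437) in the KPC-shV-labelled library and 249 CPM (240–258) in the KPC-shZEB1-labelled library. The Gpnmb- and Mmp12-bearing macrophages went the other way, at 50.2 CPM (45.4–55.4) and 83.8 CPM (79.5–88.2). Neutrophil-like cells were at 41.8 and 52.2 CPM, of which the granule-rich cells held 19.6% and 32.9%. Its near-identical neighbor Chil4 had 0 UMIs in neutrophil-like cells of either library and 33 and 38 in tumor-like cells.

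Between the libraries, 6 of the 9 genes had the 50 UMIs needed for a comparison in neutrophil-like cells, and 1, Camp, passed 1.5-fold, at 0.643 times (0.545–0.758) in the KPC-shZEB1-labelled library. Mpo, Elane and Ctsg had too few. Over all 12524 genes tested, 2.94% were at least 1.5-fold lower and 22.3% at least 1.5-fold higher, and the median ratio was 1.21, against 0.643 to 1.25 for the 6 genes. Camp rested on few cells: without granule-rich cells the ratio was 1.49 (0.795–2.77) from 24 and 22 UMIs, under the minimum of 50, and none of the other 5 genes passed 1.5-fold. Ltf was at 1.08 (0.984–1.18), Ngp at 1.15 (1.02–1.29), Lcn2 at 1.12 (1.07–1.17), Prtn3 at 1.23 (1.04–1.45) and Chil3 at 1.25 (1.13–1.38) with all cells. Without granule-rich cells, Ngp was at 0.899 (0.581–1.37), on the other side of 1. Ltf was then at 1.01 (0.908–1.11), Lcn2 at 0.991 (0.946–1.04) and Chil3 at 1.04 (0.931–1.17), at 43.4 and 43.7, 212 and 210, and 33.7 and 35.2 CPM. Genes of at least 50 CPM had a median ratio of 1.07 (0.10 on the log2 scale), relative to which Ltf was at 1.01, Lcn2 at 1.04 and Prtn3 at 1.15. The summed UMIs of Ltf, Camp and Ngp gave a ratio of 1.01 (0.942–1.07), and those of Mpo, Elane, Prtn3 and Ctsg, nearly all from Prtn3, 1.23 (1.04–1.45).

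**Figure D4:**
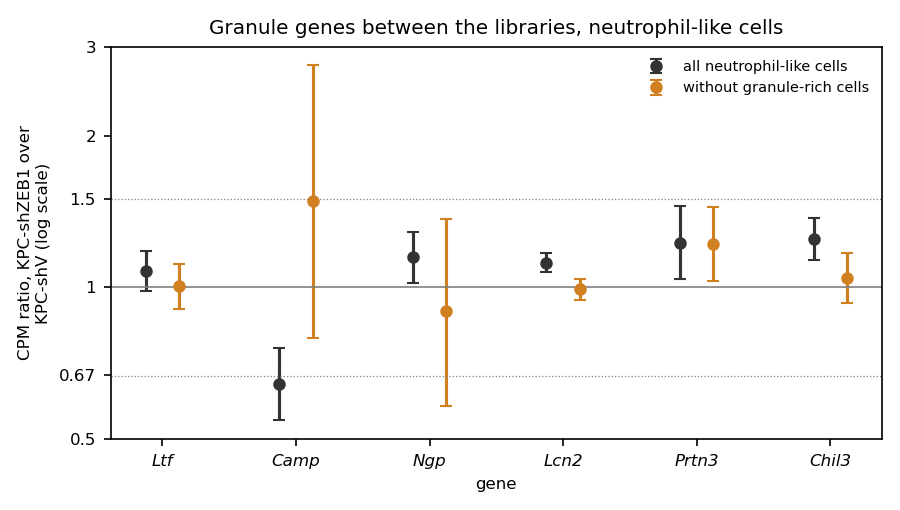
CPM ratio of the KPC-shZEB1-labelled library over the KPC-shV-labelled library in neutrophil-like cells (vertical axis, log scale) for the 6 genes with at least 50 UMIs, with exact 95% counting intervals; black points hold all cells and orange points leave out the 9 granule-rich cells. Camp goes from 0.643 to 1.49 and Lcn2 from 1.12 to 0.991; dotted lines mark 1.5-fold.

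Prtn3 also differed between neutrophil clusters. The cluster led by Abca13, Med12l, Mmp9 and Siglecf is called Siglecf-led here. It held 15.4% of neutrophil-like cells in the KPC-shV-labelled library and 37.5% in the KPC-shZEB1-labelled library. A Siglecf UMI was found in 22.3% and 22.8% of its cells, against 2.98% and 3.57% of other neutrophil-like cells. Cxcr2 stood above Siglecf in it, at 212 and 186 against 83.4 and 88.7 CPM. Prtn3 was at 36.3 and 33.0 CPM in this cluster, against 2.54 to 15.7 CPM in the other 4 clusters. Within that cluster the ratio was 0.911 (0.727–1.14), and in the Cxcr2-led cluster 0.609 (0.429–0.853). Ltf, at 96.4 and 85.9 CPM in the Siglecf-led cluster, fell to 48.8 and 56.1 CPM there without granule-rich cells, against 42.4 and 35.4 CPM in the other clusters. Lcn2 was lower in that cluster, at 104 and 130 CPM without granule-rich cells, against 233 and 263 CPM.

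In other classes, 1 of the 9 genes passed 1.5-fold in monocyte-macrophage-like cells, Chil3, at 0.640 times (0.614–0.667), where 1.73% of genes were that much lower and 8.39% higher. In tumor-like cells, where 4 could be compared, it was Ltf, at 0.644 times (0.598–0.693), against 3.87% of genes lower and 12.2% higher. The largest tumor-like cluster gave 0.860 (0.798–0.928) for Ltf. In fibroblast-like cells 4 could be compared and 2 passed 1.5-fold. Lcn2 was 3.01 times higher (2.79–3.24), at 84.6 and 254 CPM, and Chil3 1.55 times (1.09–2.24), where 5.91% of genes were higher and 5.14% lower. Lcn2 was detected in 70.9% of 357 and 78.4% of 379 fibroblast-like cells, with 17.6% and 27.6% of its UMIs in 5 cells. Chil3 in fibroblast-like cells, at 4.90 and 7.62 CPM, stood beside 5.20 and 8.07 CPM in B-like cells.

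Sorting the neutrophil-like cells by whether a UMI of Cxcr2 or Siglecf was detected gave 4 sorts. Cells with Cxcr2 only numbered 2743 in the KPC-shV-labelled library, with 228 holding both, 3709 neither and 181 Siglecf only. In the KPC-shZEB1-labelled library the numbers were 2012, 240, 2070 and 252. Median depths were 3326, 3713.5, 2971 and 3635 UMIs, and 2947.5, 3602.5, 2759 and 3157 UMIs, lowest in cells with neither. Siglecf is also a marker of eosinophils, whose 8 other markers were at 14.9 and 20.01 CPM in the Siglecf-only cells and 16.1 and 20.05 CPM in the Cxcr2-only cells.

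Prtn3 was higher in cells with Siglecf in both libraries. The library labelled KPC-shV had 14.5 CPM in Cxcr2-only cells, 45.4 in cells with both, 9.75 in cells with neither and 49.2 in Siglecf-only cells, and the KPC-shZEB1-labelled library 16.3, 41.1, 12.4 and 40.0 CPM. Both sorts with Siglecf stood above both sorts without it. The ratio of Siglecf-only to Cxcr2-only cells was 3.399 (2.25–4.99) and 2.46 (1.62–3.65). Of all genes, 33.8% and 31.2% were at least 1.5-fold higher in the same comparison, so a ratio of this direction was common. The median ratio over all genes was 1.25 in each library. After thinning to 1000 UMIs, Prtn3 was at 51.3 CPM (31.8–78.5) with Siglecf and 10.8 CPM (8.46–13.7) without in the KPC-shV-labelled library, and at 36.6 CPM (21.7–57.8) and 12.5 CPM (9.30–16.4) in the KPC-shZEB1-labelled library. The difference was present inside the Siglecf-led cluster, at ratios of 1.82 (1.26–2.60) and 1.59 (1.16–2.17) between cells with and without a Siglecf UMI, and in the other clusters, at 4.05 (2.57–6.15) and 3.56 (1.55–7.26), granule-rich cells left out.

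Lcn2 was lower in Siglecf-only than in Cxcr2-only cells. It was at 256 CPM in Cxcr2-only, 216 in both, 201 in neither and 83.5 in Siglecf-only cells of the KPC-shV-labelled library, and at 315, 312, 182 and 132 CPM in the KPC-shZEB1-labelled library. The Siglecf-only over Cxcr2-only ratio was 0.326 (0.246–0.425) and 0.418 (0.343–0.506), and 0.339 and 0.542 without granule-rich cells. Siglecf-only cells were the lowest sort in both libraries. A wider comparison set cells with any Siglecf UMI against cells without one, granule-rich cells left out. Over all neutrophil-like cells its Lcn2 ratio was 0.754 (0.665–0.853) and 0.854 (0.759–0.957). It was 0.909 (0.712–1.15) and 1.53 (1.31–1.78) inside the Siglecf-led cluster and 1.08 (0.927–1.26) and 0.794 (0.625–0.996) in the other clusters. Within clusters, a lower Lcn2 level in cells with any Siglecf UMI was therefore not seen in both libraries. Siglecf-only and Cxcr2-only cells were not compared within clusters. With all cells, Ngp was also called lower in Siglecf-only than in Cxcr2-only cells in both libraries, and Camp in the KPC-shZEB1-labelled library. Of all genes, 10.5% and 8.73% were at least 1.5-fold lower. Siglecf-only cells held 0 and 1 UMIs of each of Camp and Ngp. When granule-rich cells were left out, Cxcr2-only cells went from 64 to 24 and from 447 to 15 Ngp UMIs. Their Camp UMIs in the KPC-shZEB1-labelled library went from 148 to 8. Both genes were then under the minimum of 50 UMIs, so neither could be called. The lower calls of Ngp and Camp therefore rest on the granule-rich cells and say nothing of the other cells.

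For the summed UMIs of Ltf, Camp and Ngp, which leave out the specific granule gene Lcn2, the libraries differed. Lcn2 alone was at 0.326 and 0.418 times, below 1 in both libraries. The Siglecf-only over Cxcr2-only ratio of Ltf, Camp and Ngp together was 1.05 (0.706–1.497) in the KPC-shV-labelled library and 0.434 (0.326–0.567) in the KPC-shZEB1-labelled library, and without granule-rich cells it was 1.18 (0.794–1.69) and 1.75 (1.28–2.34). The first granule-rich cell of the KPC-shZEB1-labelled library held 1 Cxcr2 UMI and that of the KPC-shV-labelled library none, which put them into different sorts. A Cxcr2 UMI was found in 2 of the 4 and 5 of the 5 granule-rich cells, and a Siglecf UMI in 0 and 1 of them. Ltf alone was at 1.26 (0.852–1.82) and 1.05 (0.780–1.40), and at 1.29 (0.869–1.85) and 1.86 (1.36–2.51) without granule-rich cells. Over all genes the median of this ratio was 1.25 in each library. The Ltf levels of Siglecf-only cells, 47.7 and 64.7 CPM, stood beside 37.0 and 34.8 CPM of Cxcr2-only cells that were not granule-rich. Chil3 was at 25.4 and 55.3 CPM in Siglecf-only cells and 38.0 and 50.7 CPM in Cxcr2-only cells, at ratios of 0.668 (0.385–1.08) and 1.09 (0.785–1.48). Without granule-rich cells the Chil3 ratios were 0.693 (0.399–1.12) and 1.93 (1.37–2.67).

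**Figure D5:**
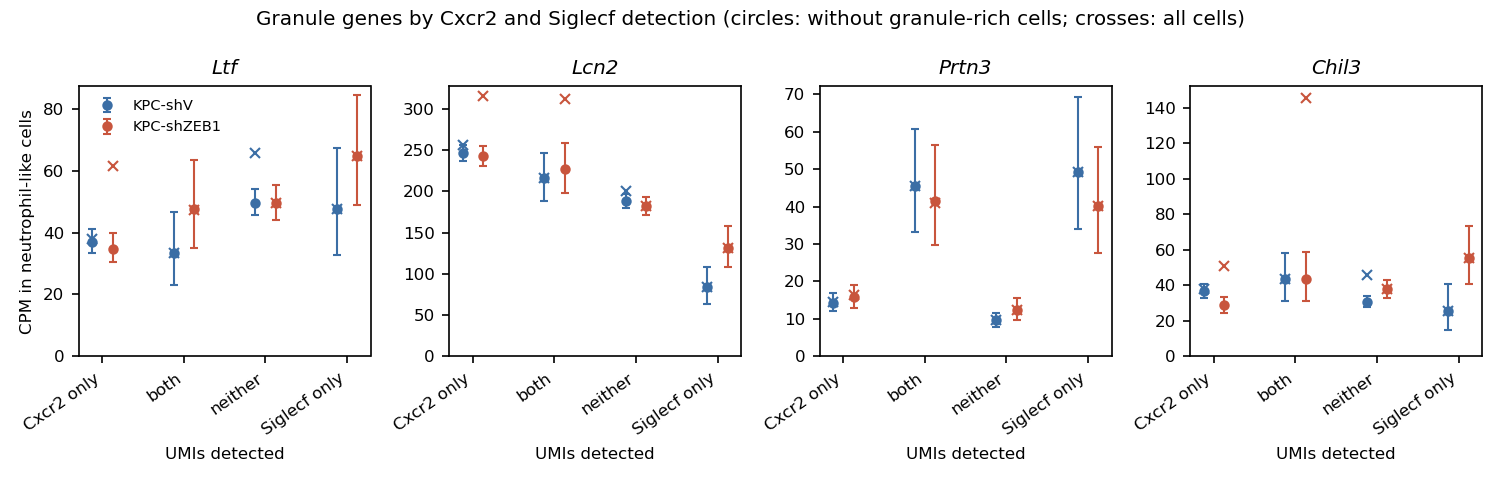
CPM of Ltf, Lcn2, Prtn3 and Chil3 (vertical axes) in neutrophil-like cells sorted by detection of Cxcr2 and Siglecf (horizontal axes), in blue for the KPC-shV-labelled library and red for the KPC-shZEB1-labelled library; circles with exact 95% Poisson intervals leave out granule-rich cells and crosses hold all cells. Prtn3 is at 40.0 to 49.2 CPM in the sorts with Siglecf and at most 16.3 CPM in those without, and Lcn2 is lowest in Siglecf-only cells (83.5 and 132 CPM).

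Other genes of granules and maturation, from lists chosen with the members, give the setting. Their counts stand beside backgrounds of 22.3% of all genes higher and 2.94% lower between the libraries. For Siglecf-only over Cxcr2-only cells the backgrounds are 33.8% and 31.2% higher and 10.5% and 8.73% lower. Of 11 other specific granule genes, 10 could be compared between the libraries in neutrophil-like cells. Of these 1, Lyz2, was at least 1.5-fold higher (388 and 844 CPM, 2.18 times) and none lower, with a median ratio of 1.18 against 1.21 for all genes. Cyba, Cybb and Hp, with the next most UMIs, were at 1.21, 1.15 and 1.29 times. Of 5 gelatinase granule genes, Mmp8 was lower (66.7 and 37.1 CPM, 0.557 times), and Mmp9, the gelatinase itself, was at 1.199 times. In Siglecf-only against Cxcr2-only cells, 3 and 4 of those 5 were lower, with Mmp8 at 0.146 and 0.123 times, Slc11a1 at 0.454 and 0.570 and Adam8 at 0.439 and 0.507, while Mmp9 was at 1.71 and 1.47 times. Of 8 genes of mature circulating neutrophils, 4 were lower and Il1r2 higher in the KPC-shZEB1-labelled library, and 5 and 7 were lower in Siglecf-only cells. S100a9, a calcium-binding protein of the cytosol, was at 0.656 and 0.560 times in that sort, its partner S100a8 at 0.686 and 0.592, and the growth factor receptor Csf3r at 0.671 and 0.609, so the latter pair passed 1.5-fold only in the KPC-shZEB1-labelled library. Of 10 genes of late tumor neutrophils, 2 were lower between the libraries. In Siglecf-only cells 1 and 2 were higher and 2 lower in each library. Cd14 was at 0.471 and 0.430 times in that sort and Vegfa at 2.42 and 2.64 times. Csf1 was at 1.41 and 1.52, Ccl3 at 1.38 and 1.48 and Ccl4 at 1.37 and 1.26 times. Of 7 granulopoiesis transcription factors, Cebpa and Irf8 were higher in the KPC-shZEB1-labelled library, at 2.02 and 2.21 times, and Cebpe was at 6.79 and 8.23 CPM. Of 6 proliferation genes, 4 were higher there, Mki67 at 1.84 times. Of 6 receptors and inhibitors of granule proteins, Slpi, an elastase inhibitor, was lower at 0.617 times and in Siglecf-only cells at 0.357 and 0.234 times, and Serpina3n was higher at 1.89 times. Fpr2, a receptor for the Camp peptide, was at 0.874 and Lrp1, a receptor for lactoferrin, at 1.44 times. Summed markers of several other cell types were also higher in neutrophil-like cells of the KPC-shZEB1-labelled library. Acinar markers were at 70.5 and 550 CPM, B cell markers at 36.3 and 103 CPM, and T and NK markers at 26.3 and 66.9 CPM. Plasma, endothelial and erythroid markers were lower. How far RNA of other cells entered the ratios of Lyz2, Cebpa, Irf8 and Mki67 was not tested. Mmp8, Vegfa, Csf1, Cebpa, Irf8, Cebpe and Serpina3n are named here after their values were seen.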

How the data were processed

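Single-cell RNA was counted in 2 libraries, 1 per group, from 1 tumor each. The authors deposited raw UMI counts per gene and cell barcode, made with Cell Ranger 7.0.1 on mm10 per the labels. Whether intronic reads were counted is not given in the sources used here. The cell filter asked for 500 genes or more, between 1000 and 60000 UMIs, and no more than 15% of UMIs from mitochondrial genes, and cells with a Scrublet score above 0.2 were removed (325 and 348 cells). Cells of both libraries were clustered together with scanpy 1.11.5 and leidenalg 0.10.2 (3000 variable genes, 30 components, 20 neighbors, resolution 1) without the 9 granule genes, Cxcr2, Siglecf and the other listed genes that are not markers. Of 24 clusters, each was named from its markers, and 2 whose name changed with the resolution were left unnamed after the names were seen. UMIs were summed per class and library and given as CPM, with exact Poisson intervals. Ratios have exact intervals conditional on the summed UMIs, and shares Clopper-Pearson intervals, at 95% (scipy 1.17.1). A gene was compared with at least 50 UMIs and called past 1.5-fold. A count of 0 was taken to allow 3. No test was made, since each group is 1 library. The scripts were tested on simulated data. The granule genes and all lists were chosen with earlier results of these data known. Named genes are the 9, up to 4 per other list with the most UMIs, and those most like them by the smaller of the 2 libraries' ratios. Alternatives changed the cell filter, doublets, scaling, depth, gate, resolution, clusters and highest cells.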

Additional observations from a re-analysis of the deposited data

Results flagged for a closer look

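Chil3 in Siglecf-only over Cxcr2-only neutrophil-like cells lay on opposite sides of 1 in the 2 libraries, at 0.668 times in the KPC-shV-labelled library and 1.09 times in the KPC-shZEB1-labelled library. Without granule-rich cells the Chil3 ratios were 0.693 and 1.93 times, as the Chil3 UMIs of Cxcr2-only cells in the KPC-shZEB1-labelled library went from 324 to 182. The sum of Ltf, Camp and Ngp, which leaves out Lcn2, lay on opposite sides of 1 as well, at 1.05 and 0.434 times. Without granule-rich cells this sum was at 1.18 and 1.75 times. The median of this ratio over all genes was 1.25 in each library. With all cells, Chil3 and the sum lay below that median in both libraries. The Chil3 intervals with all cells, 0.385–1.08 and 0.785–1.48, included 1. These differences were not tested, because each group is 1 library. Barcodes removed by the cell filter or as doublets, which enter no comparison, held Camp and Ngp together at 1.76 CPM (43 UMIs in 1172 barcodes) in the KPC-shZEB1-labelled library, against 0.968 CPM (29 UMIs in 1206 barcodes) in the KPC-shV-labelled library, with at most 2 UMIs in a barcode.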

How the results depend on the processing

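No paired analysis was possible because each group is 1 library. Between the libraries, the ratio of summed Ltf, Camp and Ngp of 1.01 became 0.644 with no upper UMI limit and 0.650 with no doublet removal, where the first granule-rich cell of the KPC-shZEB1-labelled library was classed elsewhere, 0.937 relative to the median gene and 0.796 without the Siglecf-led cluster. The azurophil ratio of 1.23 became 1.00 under a marker gate (a UMI each of S100a8, S100a9 and Csf3r, none of Cd3e, Cd79a, Epcam and C1qa) and 0.772 without the cluster that moved it most. The count of granule genes past 1.5-fold, 1 lower, became 2 lower with no upper UMI limit, no doublet removal or the marker gate, 1 higher and 1 lower with 1 UMI in each library as the minimum, 1 higher and 0 lower without the cluster that moved it most or without the 5 highest cells per library, and 0 as a mean over cells, at 2-fold and without granule-rich cells. Camp turned to 1.04 under the marker gate, 1.08 without the cluster that moved it most, 1.55 without the 5 highest cells per library and 1.49 without granule-rich cells. Ngp, at 1.15, turned to 0.437 with no upper UMI limit, 0.444 with no doublet removal, 0.0813 under the marker gate, 0.492 without the cluster that moved it most, 0.865 without the 5 highest cells per library and 0.899 without granule-rich cells. In the KPC-shV-labelled library the Siglecf-only over Cxcr2-only ratio of 1.05 became 0.487 when 2 UMIs sorted a cell, 1.84 when thinned before the sort and 0.650 under the marker gate. In the KPC-shZEB1-labelled library the 0.434 turned to 7.39, 1.29 and 4.39 under these settings, to 1.51 without the cluster that moved it most, and to 1.75 without the 5 highest or the granule-rich cells. It moved to 0.870 when thinned after the sort, 0.940 as a mean over cells and 0.951 with no doublet removal. Leaving out granule-rich cells was chosen after seeing the data. Except where stated, the cause was not tested. Mpo, Elane and Ctsg had at most 8 UMIs per library in neutrophil-like cells, too few for a comparison.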
